A study of Homo sapiens with 6 samples.

Results

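The E2F and retinoblastoma family was followed through 10 genes of the deposited table of 58735: the transcription factor genes E2F1, E2F2, E2F3, E2F4, E2F7 and E2F8, the E2F partner gene TFDP1, and the pocket protein genes RB1, RBL1 and RBL2. They were taken by gene name. U937 cells, a human myeloid line, were sequenced as 3 libraries overexpressing BCL6B, labelled oeBCL6B, and 3 control libraries, labelled NC. The series' design text names lentiviral vectors for overexpression in several leukaemia lines. The labels give no vector for NC, no time after transduction and no statement that replicates came from different cultures. The p-values therefore reflect the scatter among the libraries at hand, which could be technical. The study asks how BCL6B, a zinc finger relative of the transcriptional repressor BCL6, acts in acute myeloid leukaemia.

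E2F proteins bind DNA as dimers with a DP protein such as that encoded by TFDP1, and they control genes needed to enter and complete DNA replication. E2F1, E2F2 and E2F3 are known as activators. E2F4 works mainly with pocket proteins in resting cells, and E2F7 and E2F8 repress without a DP partner or a pocket protein. The pocket proteins, RB from RB1, p107 from RBL1 and p130 from RBL2, bind E2Fs and hold their targets down until cyclin-dependent kinases phosphorylate them. The RBL1 and RBL2 products also form the DREAM repressor complex with E2F4 and the MuvB core. Because most of these genes are themselves tied to the cell cycle, their level in a culture depends on how many cells are in each phase. In bulk RNA a change in the number of cells in a phase and a change in RNA per cell cannot be told apart.

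The libraries held 17095256 to 18870186 reads in listed genes with BCL6B overexpression and 16481014 to 17627289 in control libraries. BCL6B itself was at 16.7 ± 2.52 FPKM (fragments relative to gene length and to the library's depth) with overexpression, while the control libraries held no BCL6B read (SD, n = 3 each). Of 9 myeloid marker genes, 7 reached 0.5 FPKM in at least 3 libraries, led by MPO at a mean of 1668 FPKM with overexpression and 2025 FPKM in control libraries, while CD14 and CD68 stayed under that level. The summed level of the 9 was 1704 to 1887 FPKM with overexpression and 2108 to 2260 FPKM in control libraries. MPO made up most of this sum. SPI1 averaged 96.9 FPKM with overexpression and 85.8 FPKM in control libraries, and CSF1R 1.51 and 1.14 FPKM. PTPRC, LYZ and CD33 were lower with overexpression, at 12.4, 9.35 and 10.9 FPKM against 15.1, 15.9 and 13.7 FPKM in control libraries. ITGAM was at 2.90 FPKM with overexpression and 2.92 FPKM in control libraries. Among markers of other cells, 4 of 5 erythroid genes were listed at 0 in all 6 libraries and no fibroblast marker reached 0.5 FPKM. CD3D, EPCAM and the B cell genes CD79A and CD79B were present, with group means of at most 6.19 FPKM. Mitochondrially encoded genes took 4.49% to 4.97% of reads with overexpression and 4.17% to 4.44% in control libraries. The part of these differences in the results below was not tested.

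Promoters are shown first because activator E2F genes are known to be controlled by E2F itself. RefSeq windows (GRCh38.p14, 250 bases before to 50 after a start site) near the 5′ end of the gene in the deposited table were found for 8 of the 10 members. E2F8 had no window. The start site of the only RB1 window lay 172724 bases from the gene's 5′ end, and this window was not used. The RBL2 window used also lies inside the deposited gene, with its start site 494 bases from the 5′ end. An E2F site was searched on both strands as TTTCCCGC, TTTGGCGC, TTTCGCGC or TTTGCCGC. It was present in 5 of the 8 windows (E2F1, E2F2, E2F3, TFDP1 and RBL1). Of all 35116 windows of this length 3.31% held it, and of the 12711 windows of tested genes 5.18%. The other window listed for E2F3, and that for RBL2, held no site. The windows of E2F1 and RBL1 held 2 sites each, as did 0.145% of all windows when 2 or more were counted. Positions are counted with the start site as 0: the E2F1 sites began at -33 and -20, the RBL1 sites at -26 and -16, and the single sites of E2F2, E2F3 and TFDP1 at -42, -53 and -120. The sequences of the 3 members that rose with BCL6B overexpression and of the 1 that fell follow, 5′ to 3′ on the gene's strand, with the matched letters in capitals.
E2F1, chr20:33686336-33686635, minus strand: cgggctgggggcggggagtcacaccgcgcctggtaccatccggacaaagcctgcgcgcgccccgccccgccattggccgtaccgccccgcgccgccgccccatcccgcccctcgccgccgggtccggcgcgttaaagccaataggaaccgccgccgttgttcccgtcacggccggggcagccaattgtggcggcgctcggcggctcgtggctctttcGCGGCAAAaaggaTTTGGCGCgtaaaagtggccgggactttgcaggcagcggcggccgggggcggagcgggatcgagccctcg
E2F2, chr1:23531184-23531483, minus strand: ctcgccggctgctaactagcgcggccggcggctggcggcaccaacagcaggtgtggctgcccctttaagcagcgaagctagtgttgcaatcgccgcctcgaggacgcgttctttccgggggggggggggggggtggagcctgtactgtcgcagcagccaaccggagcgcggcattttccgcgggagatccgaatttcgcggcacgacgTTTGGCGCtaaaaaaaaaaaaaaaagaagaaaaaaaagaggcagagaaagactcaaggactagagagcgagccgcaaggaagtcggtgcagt
E2F3, chr6:20401629-20401928, plus strand: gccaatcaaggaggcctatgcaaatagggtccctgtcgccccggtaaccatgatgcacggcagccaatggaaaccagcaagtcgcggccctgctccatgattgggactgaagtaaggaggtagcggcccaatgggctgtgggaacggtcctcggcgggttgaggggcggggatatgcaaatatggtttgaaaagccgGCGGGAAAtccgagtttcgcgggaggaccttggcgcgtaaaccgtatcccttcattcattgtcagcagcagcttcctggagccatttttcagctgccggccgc
RBL2, chr16:53434221-53434520, plus strand: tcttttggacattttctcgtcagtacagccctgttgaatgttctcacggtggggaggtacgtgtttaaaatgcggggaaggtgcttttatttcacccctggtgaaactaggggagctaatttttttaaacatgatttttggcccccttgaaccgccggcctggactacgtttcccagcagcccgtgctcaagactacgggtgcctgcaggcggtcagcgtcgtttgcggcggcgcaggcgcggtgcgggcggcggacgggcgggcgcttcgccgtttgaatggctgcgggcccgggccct
The RBL2 window, which lies inside the gene, held no match to the letters searched, nor did those of E2F4 and E2F7. A motif of the BCL6 type, TTCCTNGAA on both strands, was in none of the 8 windows and in 1.56% of all windows. A match is a description of the letters in the window, and no binding was measured.

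The activator E2F genes rose and RBL2 fell when BCL6B was overexpressed. E2F1 was 1.38-fold of control, E2F2 1.28-fold and E2F3 1.22-fold, while RBL2 stood at 83.1% of control. E2F4, E2F8, TFDP1, RB1 and RBL1 did not pass the test, and E2F7 had no read in any library. Genes with at least 0.5 FPKM in at least 3 libraries were tested, which kept 9 of the 10 members. Of these 9, 3 rose and 1 fell (limma on log2(FPKM + 1), adjusted over 14662 tested genes at 0.05). Over all tested genes 18.3% passed, 8.18% higher and 10.1% lower. Groups did not overlap for 5 of the 9, namely E2F1, E2F2, E2F3, TFDP1 and RBL2, against 40.0% of all tested genes. A two-sided exact permutation test on FPKM gave p = 0.1 for each of these 5, the smallest that 3 libraries against 3 allow.

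**Figure D1:**
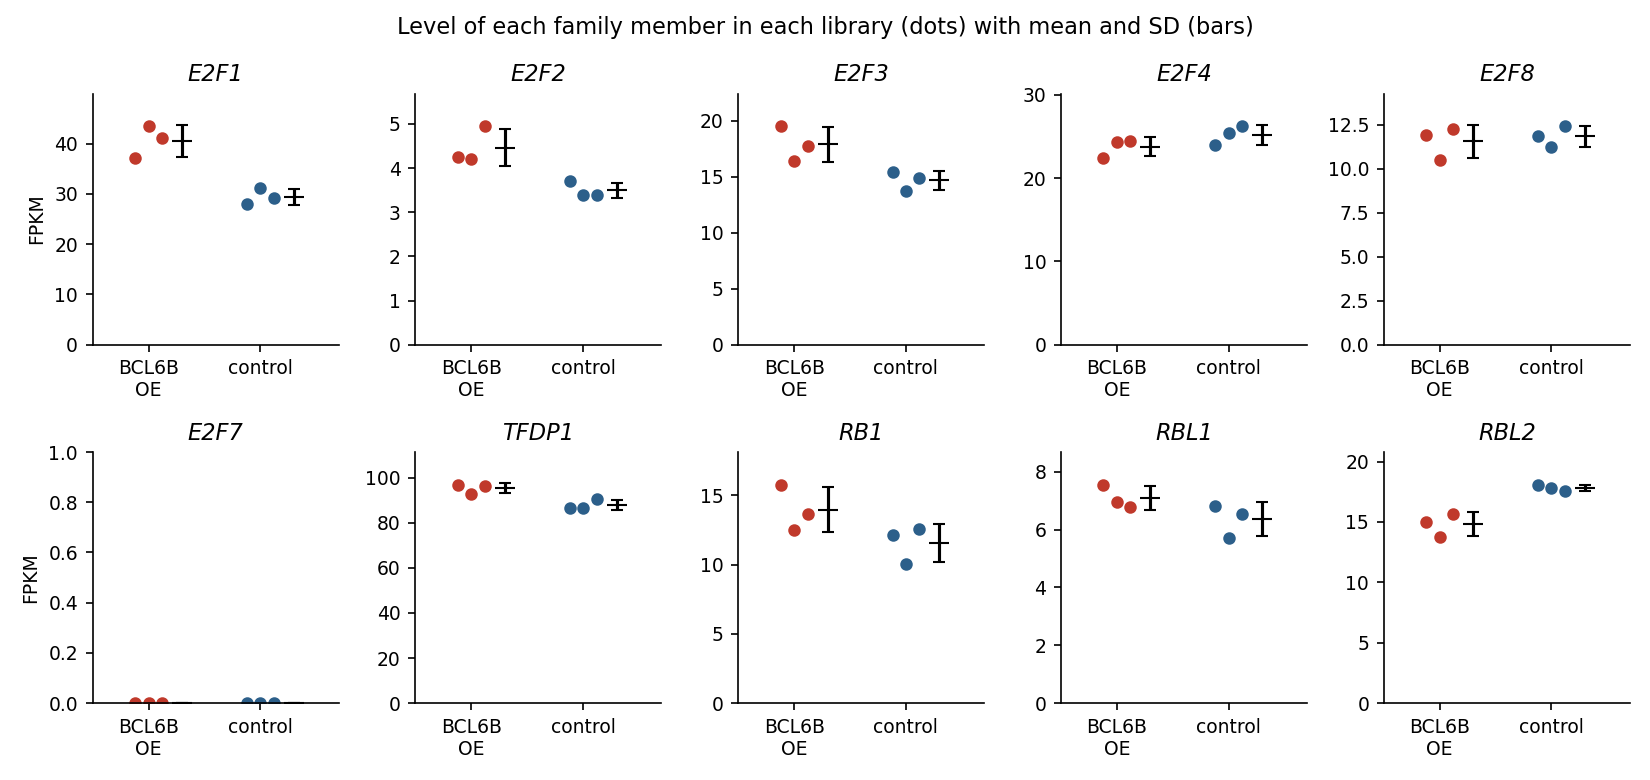
FPKM of each family member in the 3 BCL6B-overexpressing libraries (left, red) and the 3 control libraries (right, blue), each panel with its own axis from 0. Black bars are the mean and SD of 3 libraries. E2F1, E2F2, E2F3 and TFDP1 lie higher with overexpression and RBL2 lower, with no overlap, and E2F7 is at 0 throughout.

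E2F1 (ENSG00000101412, GRCh38 chromosome 20, 33675683 to 33686404, minus strand), the founding member of the family and an activator of replication genes, had the largest change among the members. Its level was 37.1, 43.4 and 41.1 FPKM in the overexpressing libraries, against 27.9, 31.1 and 29.2 FPKM in control libraries. The lowest overexpressing library thus lay above the highest control library, from 1746 to 2060 reads against 1269 to 1418. The log2 change was 0.45 (SE 0.0703, 95% interval 0.28 to 0.61, limma adjusted p = 0.00852). E2F1 kept its call with each library left out in turn, at adjusted p of 0.00895 to 0.0379. It lost it, at 0.0836, when genes with low values were not filtered out.

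E2F2 (ENSG00000007968, chromosome 1, 23506430 to 23531220, minus strand), an activator with a known part in blood cell proliferation, was the lowest of the 9 detected members. It was at 4.24, 4.21 and 4.95 FPKM with overexpression and at 3.70, 3.40 and 3.38 FPKM in control libraries. The groups were separate, but the third overexpressing library alone held 541 reads where the other two held 436 and 410. The log2 change was 0.28 (SE 0.0751, 95% interval 0.10 to 0.46, limma adjusted p = 0.0441). E2F3 (ENSG00000112242, chromosome 6, 20401906 to 20493715, plus strand), the third activator, was at 19.5, 16.4 and 17.7 FPKM with overexpression and at 15.4, 13.8 and 14.9 FPKM in control libraries. All 3 overexpressing libraries lay above the controls, with SDs of 1.55 FPKM with overexpression and 0.847 FPKM in control libraries (n = 3 each). Its log2 change was 0.27 (SE 0.0737, 95% interval 0.091 to 0.44, limma adjusted p = 0.0494). Both sat close to the threshold and neither call held with any 1 library left out, at adjusted p of 0.0631 to 0.130 for E2F2 and 0.0508 to 0.124 for E2F3, although the direction did not change.

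Summed over E2F1, E2F2 and E2F3, the activators reached 60.8, 64.0 and 63.7 FPKM with overexpression and 47.0, 48.3 and 47.5 FPKM in control libraries. E2F1 made up 61.0% to 67.8% of this sum with overexpression and 59.3% to 64.4% in control libraries, so its share overlapped between groups.

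The E2F genes outside the activator group stood close to their control levels. E2F4 (ENSG00000205250, chromosome 16, 67192169 to 67198918, plus strand) was at 22.4, 24.3 and 24.5 FPKM with overexpression and at 23.9, 25.4 and 26.2 FPKM in control libraries. These ranges overlapped, and the log2 change was -0.08 (SE 0.0560, 95% interval -0.21 to 0.051, limma adjusted p = 0.353). The ratio of E2F1 to E2F4 was 1.65 to 1.79 with overexpression and 1.11 to 1.22 in control libraries. E2F8 (ENSG00000129173, chromosome 11, 19224063 to 19241620, minus strand), an atypical repressor, was at 11.9, 10.5 and 12.3 FPKM with overexpression and at 11.9, 11.2 and 12.4 FPKM in control libraries. The groups overlapped, with a log2 change of -0.03 (95% interval -0.20 to 0.13, limma adjusted p = 0.781). For both genes the interval gives the changes that these libraries leave possible. The relatives E2F5 and E2F6, repressors of the family, and the partner gene TFDP2 were at 3.52, 4.97 and 3.70 FPKM with overexpression and at 3.95, 5.07 and 4.02 FPKM in control libraries, with overlapping groups. None of these 3 passed limma's adjusted test, none had an unadjusted p under 0.05 and none was called by limma voom. A further relative, TFDP3, was listed at 0.

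E2F7 (ENSG00000165891, chromosome 12, 77021247 to 77065580, minus strand), the other atypical repressor, had 0 reads in all 6 libraries. A count of 0 allows up to 0.0238 to 0.0274 FPKM per library, for counting error only, against the 10.5 FPKM or more of E2F8. No gene in the table overlaps E2F7. A level of 0 was common: 20.0% of 19951 protein-coding genes had it in every library.

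The neighbours of E2F7 were therefore looked at in chromosomal order, a comparison chosen after the 0 was seen. On the lower-coordinate side ZDHHC17 was at 9.43 FPKM with overexpression and 8.59 FPKM in control libraries, and CSRP2 between them was at 0.0174 and 0.0127 FPKM. From E2F7 to PAWR, whose start site lies 2626 kb away, the table lists 21 genes, of which 20 had 0 reads in all libraries. The exception, NAV3, was at 0.0224 FPKM with overexpression and 0.0325 FPKM in control libraries. The protein-coding genes of this span are E2F7, NAV3, SYT1 and PAWR, and the 21 also include other gene types. Of the 58735 genes of all types in the table, 22755 to 23805 were above 0 per library. Most listed genes were thus at 0 in each library, so 20 of 21 is less unusual than the protein-coding share of 20.0% would make it. PPP1R12A, the next protein-coding gene after PAWR, was at 6.51 FPKM with overexpression and 6.74 FPKM in control libraries. The cause of the 0 was not tested.

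**Figure D2:**
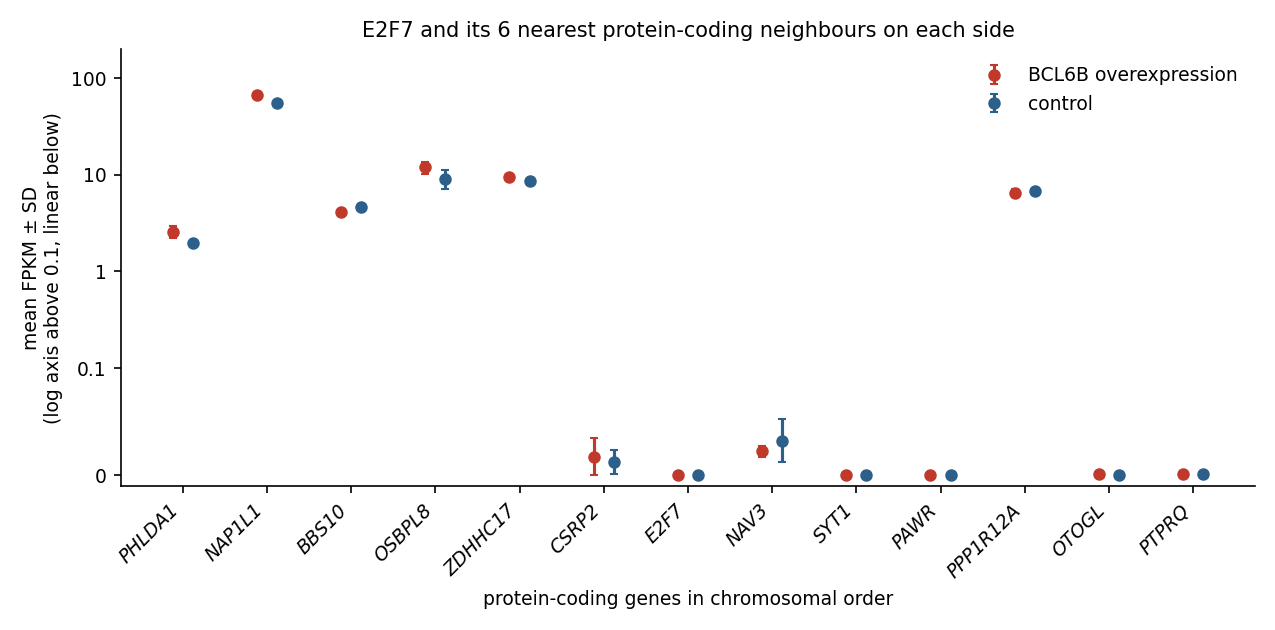
Mean FPKM with SD (n = 3 libraries per group) of E2F7 and its 6 nearest protein-coding neighbours on each side, in chromosomal order, with BCL6B overexpression in red to the left and control in blue. The axis is logarithmic above 0.1 and linear below. E2F7, SYT1 and PAWR are at 0 in both groups, between ZDHHC17 and PPP1R12A, which are at 6.51 to 9.43 FPKM.

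TFDP1 (ENSG00000198176, chromosome 13, 113584721 to 113641470, plus strand), which encodes the DP1 partner of the E2F proteins, was the most abundant member. It was at 96.9, 92.9 and 96.5 FPKM with overexpression and at 86.5, 86.4 and 90.4 FPKM in control libraries. The groups did not overlap and all 3 overexpressing libraries were higher, yet the gene did not pass (log2 change 0.12, SE 0.0424, 95% interval 0.019 to 0.22, limma adjusted p = 0.0959). It passed with limma voom on the reads, at adjusted p of 0.0432, and after a correction for GC content and gene length, at 0.0393. It also passed at a threshold of 0.1. Under 17 of the 20 alternatives it did not pass, at limma adjusted p of up to 0.313. TFDP1 exceeded 98.3% of protein-coding genes in mean level. Its level was 0.940 to 1.02 of the sum of the 6 E2F members with overexpression and 1.02 to 1.05 of it in control libraries, so the ranges overlapped.

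**Figure D3:**
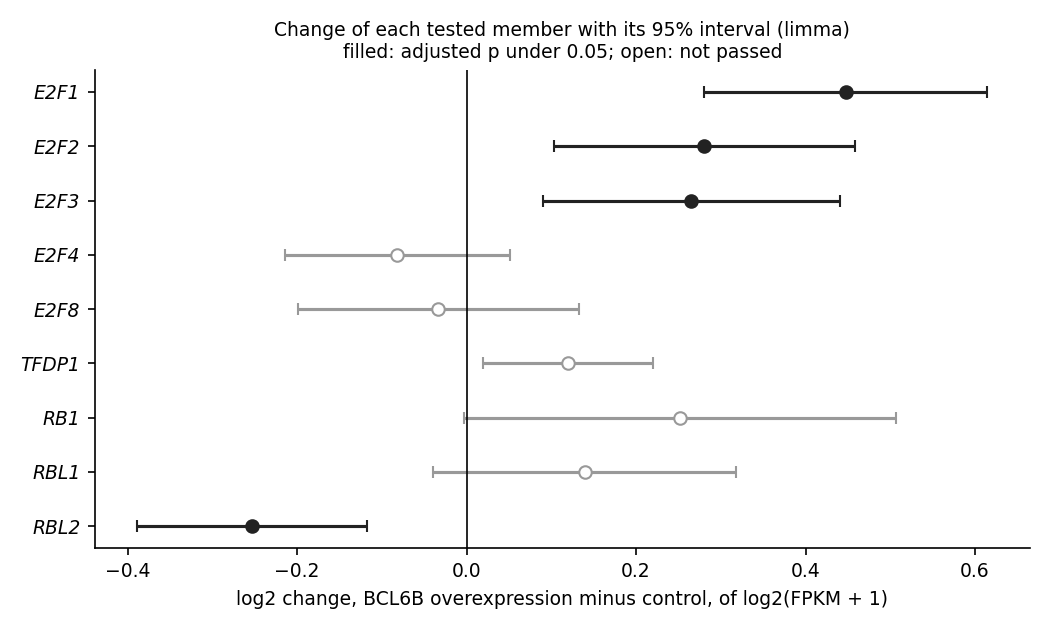
Log2 change of log2(FPKM + 1), BCL6B overexpression minus control, for the 9 tested members with the 95% interval from limma. Filled points passed the adjusted test. E2F1, E2F2 and E2F3 lie right of 0 and RBL2 left of it, from 0.45 for E2F1 to -0.25 for RBL2, and the open intervals of E2F4, E2F8, RB1 and RBL1 include 0.

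Among the pocket protein genes, RBL2 fell while RB1 and RBL1 were higher on average without passing. RBL2 (ENSG00000103479, chromosome 16, 53433977 to 53491649, plus strand) encodes p130, the pocket protein known for its abundance in resting cells. It was at 15.0, 13.7 and 15.7 FPKM with overexpression and at 18.1, 17.8 and 17.6 FPKM in control libraries. All 3 overexpressing libraries lay below the narrow control range, with a log2 change of -0.25 (SE 0.0570, 95% interval -0.39 to -0.12, limma adjusted p = 0.0258). The call did not hold when overexpression replicate 2 was left out (adjusted p = 0.0708), and it was also lost without control replicates 1, 2 and 3, at 0.0912, 0.0665 and 0.0781. Exons of genes on the opposite strand, AKTIP and AC007342.6, cover 18.2% of RBL2 exon length, and whether counting used strand is not given in the sources used here. AKTIP was at 2.91 ± 0.409 FPKM with overexpression and 2.61 ± 0.214 FPKM in control libraries (SD, n = 3), and its change did not pass (limma adjusted p = 0.458).

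RB1 (ENSG00000139687, chromosome 13, 48303726 to 48599436, plus strand), the retinoblastoma tumour suppressor, was at 15.8, 12.5 and 13.6 FPKM with overexpression and at 12.1, 10.02 and 12.6 FPKM in control libraries. The lowest overexpressing library fell just under the highest control library. The log2 change of 0.25 was close to that of E2F3, but its SE was 0.107 and it did not pass (95% interval -0.0033 to 0.51, limma adjusted p = 0.1505). It passed with limma voom on the reads, at 0.0168, and after the correction for GC content and gene length, at 0.0335. Under 18 of the 20 alternatives RB1 did not pass, at limma adjusted p of up to 0.684. RB1 also had the lowest GC content of the longest transcripts, 37.3%, against 62.5% for E2F1, the highest. RBL1 (ENSG00000080839, chromosome 20, 36996349 to 37095995, minus strand), which encodes p107 and is itself known as an E2F target, was at 7.55, 6.97 and 6.77 FPKM with overexpression and at 6.82, 5.71 and 6.55 FPKM in control libraries. Its groups overlapped (log2 change 0.14, 95% interval -0.039 to 0.32, limma adjusted p = 0.242).

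The sum of the 3 pocket protein genes hardly differed, at 38.3, 33.2 and 36.1 FPKM with overexpression and 37.0, 33.5 and 36.7 FPKM in control libraries. Its makeup did. RBL2 took 39.2% to 43.4% of the sum with overexpression and 47.9% to 53.1% in control libraries, while RB1 took 37.7% to 41.1% with overexpression and 29.9% to 34.3% in control libraries. The ratio of RB1 to RBL2 was 1.05, 0.913 and 0.871 with overexpression and 0.671, 0.563 and 0.716 in control libraries. These ranges did not overlap. The FPKM of 40.0% of all tested genes did not overlap either, but that share is of single genes. No such share was worked out for the ratios given here. The ratio of the summed activators to the summed pocket proteins was 1.59, 1.93 and 1.77 with overexpression and 1.27, 1.44 and 1.29 in control libraries. These are ratios of RNA levels per length and say nothing of protein or of phosphorylation.

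**Figure D4:**
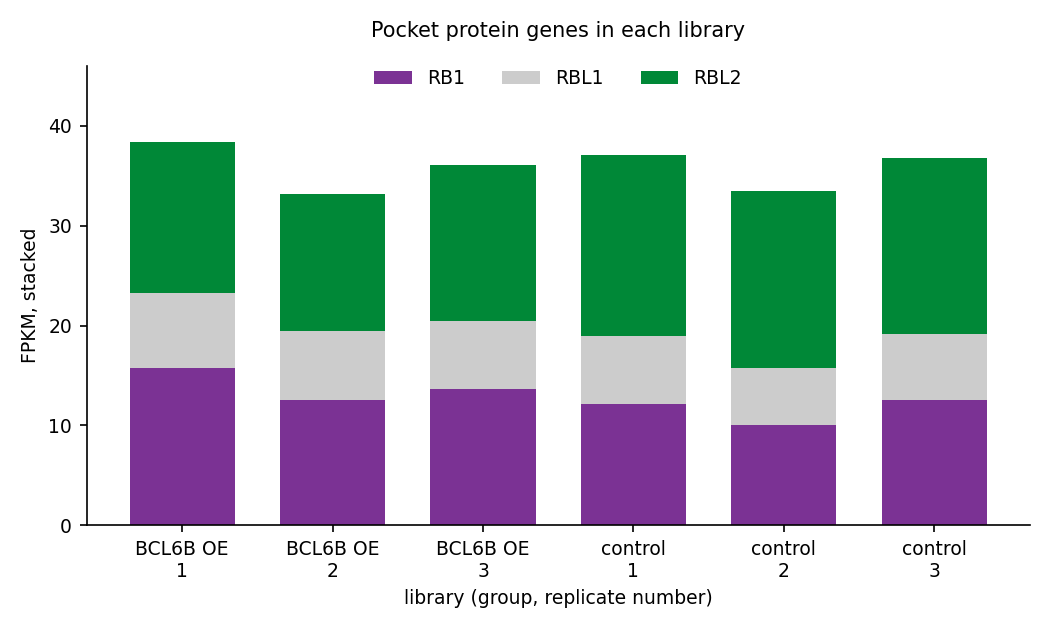
FPKM of RB1, RBL1 and RBL2 stacked for each library, the 3 BCL6B-overexpressing libraries to the left of the 3 control libraries. The stacks reach 33.2 to 38.3 FPKM with overexpression and 33.5 to 37.0 FPKM in control libraries, and the RBL2 part is smaller with overexpression.

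By level the members kept nearly the same order in both groups. With overexpression it was TFDP1, E2F1, E2F4, E2F3, RBL2, RB1, E2F8, RBL1, E2F2 and E2F7, and only RBL2 and RB1 among the neighbours in this order had overlapping ranges. In control libraries RBL2 stood above E2F3, and E2F8 and RB1 were the only neighbours whose ranges overlapped.

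Cyclins and CDC25A, which activate the kinases that inactivate pocket proteins, held members that rose, and so did the inhibitors of those kinases. Of 10 cyclin, CDK and CDC25A genes 5 rose and 0 fell, with a median log2 change of 0.17 against -0.0182 over all tested genes. At an unadjusted p under 0.05 the counts were 5 and 1, and limma voom called 5 and 0. Of all 14662 tested genes 8.18% rose and 10.1% fell. At an unadjusted p under 0.05, 2194 of them were higher and 2810 lower, and limma voom called 1976 higher and 1704 lower. These all-gene values are also the background for each list below. The lists were chosen with earlier results of these data known, so setting their counts beside this background is a description and not a test. CCNE1, which encodes cyclin E1, was at 7.12, 6.50 and 7.79 FPKM with overexpression and at 4.74, 3.45 and 3.82 FPKM in control libraries (log2 change 0.71, limma adjusted p = 0.00796). CCND1, which encodes cyclin D1, was at 8.35 ± 0.326 FPKM with overexpression and 5.25 ± 0.184 FPKM in control libraries. CDC25A, a phosphatase that activates CDK2, was at 21.5 ± 1.12 FPKM with overexpression and 17.4 ± 0.716 FPKM in control libraries, and CCND3 at 34.2 ± 1.63 and 29.3 ± 0.449 FPKM (SD, n = 3 each). CDK2, CDK4, CDK6, CCND2 and CCNA2 did not pass. The count of 5 was 2 without overexpression replicate 2 or control replicate 3, and 3 without overexpression replicate 3 or control replicate 1 or 2.

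Of 7 CDK inhibitor genes 4 were tested, 2 rose and 0 fell, against 8.18% higher and 10.1% lower over all tested genes. For this list the counts were the same at an unadjusted p under 0.05 and with limma voom. CDKN1A, which encodes p21, was at 2.40, 2.72 and 2.29 FPKM with overexpression and at 0.499, 0.432 and 0.548 FPKM in control libraries, with no overlap (log2 change 1.22, limma adjusted p = 0.000732). CDKN2D, an inhibitor of CDK4 and CDK6, was at 25.5 ± 1.58 FPKM with overexpression and 17.9 ± 1.60 FPKM in control libraries (SD, n = 3). CDKN2C and CDKN1B did not pass, and CDKN2A and CDKN2B were listed at 0 in every library.

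In the MuvB group, 1 of 7 genes rose and 0 fell, against 8.18% and 10.1% of all tested genes. Limma voom gave the group the same counts, while 1 and 1 had an unadjusted p under 0.05. The riser was MYBL2, whose product B-MYB replaces the repressor in the MuvB complex, at 89.6, 88.2 and 98.8 FPKM with overexpression and 79.0, 80.7 and 79.7 FPKM in control libraries (limma adjusted p = 0.0413). That call was lost with any 1 library left out. FOXM1 was at 14.5 ± 1.14 FPKM with overexpression and 16.0 ± 0.891 FPKM in control libraries (SD, n = 3) and did not pass. Of 10 chromatin partners of pocket proteins, among them HDAC1, SIN3A and SUV39H1, 0 passed limma's adjusted test. With an unadjusted p under 0.05 there were 1 higher and 4 lower, and limma voom called 1, higher.

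Known targets of the family were described in lists for G1/S and G2/M, and the difference between the lists was not tested. Both lists were chosen with earlier results of these data known, which limits what their counts beside the all-gene shares can show. Of 46 G1/S genes known as E2F targets 45 were tested, of which 13 rose and 1 fell, with a median log2 change of 0.0995. Over all tested genes 8.18% rose and 10.1% fell. TK1, which encodes thymidine kinase, was at 24.0, 25.3 and 25.9 FPKM with overexpression and at 15.7, 15.1 and 15.0 FPKM in control libraries (log2 change 0.68, limma adjusted p = 0.000611). RRM2, a subunit of ribonucleotide reductase, was at 29.3 ± 1.27 FPKM with overexpression and 19.2 ± 0.240 FPKM in control libraries (SD, n = 3). The licensing gene CDC6 was at 8.73 ± 0.381 and 5.45 ± 0.211 FPKM, and the histone chaperone gene ASF1B at 29.8 ± 1.29 and 21.0 ± 0.843 FPKM, with overexpression given before control (SD, n = 3). The fall was that of RRM1, named because it was the only one, at 23.8 FPKM with overexpression and 26.8 FPKM in control libraries. That call was lost with any 1 library left out, with limma voom and with each of the 3 other scalings. CCNE1, CCNE2 and CDC25A stand in this list as well as among the drivers. The count of 13 was 8 without overexpression replicate 2 or control replicate 1 and 7 without control replicate 3. The E2F site letters were in 39.3% of the 56 RefSeq windows of these genes, against 5.18% of the 12711 windows of all tested genes.

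Of 54 G2/M genes known as targets of DREAM, B-MYB or FOXM1 53 were tested, of which 25 fell and 0 rose, with a median log2 change of -0.20. The shares over all tested genes were 10.1% lower and 8.18% higher. At an unadjusted p under 0.05 the counts for the list were 36 lower and 2 higher, and limma voom called 27 lower and 1 higher. CENPF, a kinetochore gene, was at 25.0, 23.7 and 24.3 FPKM with overexpression and at 34.8, 32.7 and 33.2 FPKM in control libraries (log2 change -0.45, limma adjusted p = 0.00233). DLGAP5, a spindle gene, was at 13.1 ± 0.841 FPKM with overexpression and 19.1 ± 0.0700 FPKM in control libraries. The mitotic kinase gene AURKA was at 49.2 ± 1.46 FPKM with overexpression and 63.3 ± 2.18 FPKM in control libraries, and the kinesin gene CENPE at 11.8 ± 0.491 and 15.9 ± 0.596 FPKM (SD, n = 3). The count of 25 was 13 without overexpression replicate 2 and 11, 15 and 10 without control replicates 1, 2 and 3. The site letters were in 6.90% of the 58 windows of these genes.

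**Figure D5:**
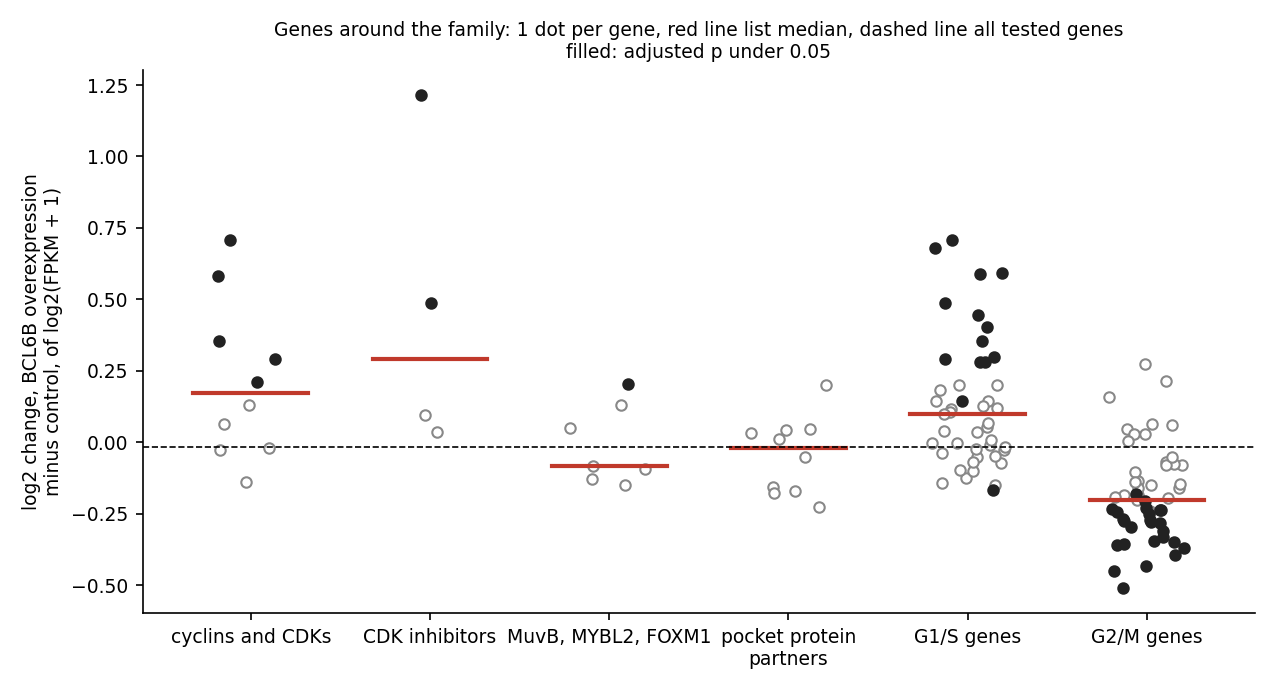
Log2 change of log2(FPKM + 1), BCL6B overexpression minus control, for the tested genes of 6 lists around the family, 1 dot per gene, filled where the adjusted test was passed. Red lines are list medians and the dashed line the median of all tested genes. Filled G1/S genes lie above 0 except RRM1, and all 25 filled G2/M genes lie below it.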

How the data were processed

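Messenger RNA of 3 BCL6B-overexpressing and 3 control U937 libraries was selected with oligo(dT) and made into dUTP-marked libraries, per the labels' protocols. The values are FPKM deposited by the authors, in a table that also gives gene lengths, per the file headers. The submitters' processing notes name cutadapt 1.9 and GRCh38, but no aligner, counter or strand setting is given in the sources used here. Multiplied by gene length, 100% of 139702 values above 0 were whole multiples of a library's smallest step (tolerance 0.01), which gave the reads. The limit for a count of 0 is 3 counts. Such limits cover counting error only, since PCR copies are not independent molecules.

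Genes with FPKM of at least 0.5 in at least 3 libraries entered limma 3.58.1 (R 4.3.3) as log2(FPKM + 1). The fit used a trend of variance on mean, and two-sided p-values were adjusted by Benjamini-Hochberg over every gene tested, at 0.05. This scale understates changes of low genes. The groups and design came from the labels. Exact permutation tests used SciPy 1.17.1. The members and lists were chosen with earlier results of these data known. Named were the members, 4 relatives, BCL6B and, from each list, up to 4 passing genes with the smallest adjusted p and separate groups, and genes of lists of 12 or fewer by value. Exceptions are said to be so, and AKTIP and the neighbours of E2F7 were added after values were seen. Some genes of the lists are not reported here by name. Copies were sought with BLAST+ 2.17.0 at 98% identity over 200 bases in GENCODE 29 transcripts: only the overlapping opposite-strand genes of RBL1 and RBL2 matched. The procedure was run on simulated reads that shared a common dispersion and held no GC effect. The outcome is not reported here and is no support for changes of the size seen in the members. Alternatives were other pseudocounts, filters, scalings, thresholds and weights, no trend, voom on the reads with TMM scaling, the replicate number as a block, leaving out each library and, chosen after seeing the data, spline adjustment for GC content and length.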

Additional observations from a re-analysis of the deposited data

How the results depend on the processing

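The log2 changes of E2F1, E2F2, E2F3, TFDP1, RB1, RBL1, E2F4 and RBL2 kept their direction under all 20 alternatives. The number of members that passed, 4 of 9, was 0 without the filter on low values, 2 after TPM rescaling, 1 at a threshold of 0.01 and 1 to 2 with 1 library left out. Over all genes the 2687 calls became 726 without the filter, 807 at a threshold of 0.01, 4054 at 0.1 and 1222 to 2272 with 1 library left out. Without the filter 58735 genes were tested and entered the variance fit, and leaving out a library leaves fewer samples. The causes of these changes in the counts, also for TPM rescaling, were not tested. With voom and with the correction for GC content and length 6 members passed, the additional 2 being TFDP1 and RB1. The log2 change of E2F8 turned to 0.0038 with quantile normalization and to 0.029 without overexpression replicate 2, within a range of -0.075 to 0.029 with 1 library left out. That of E2F6 turned to 0.0021 and 0.031 without control replicates 1 and 3 and to 0.060 without overexpression replicate 3, within a range of -0.11 to 0.060. Scaling moved the median of all genes by at most 0.034 on the log2 scale, and the share of calls that were higher, 44.6%, was 36.9% with TPM rescaling, 49.4% with quantile normalization, 51.3% with median-ratio scaling and 53.7% with voom, so which direction held more calls depended on scaling. With the replicate number as a block 3 members passed and 2328 genes, and E2F2 lost its call at limma adjusted p = 0.0758. In that fit E2F3 was at 0.0270 and RB1, which did not pass, at 0.0614. The main fit did not pair libraries by number, since the labels give no more than a replicate number. Deviations from group means correlated across genes at 0.051, 0.11 and -0.0019 for same-numbered libraries. For libraries with unlike numbers the values were -0.091 to 0.039. Depth limits mainly E2F2, with 320 to 541 reads per library.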

Other observations

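Of 10 apoptosis and checkpoint genes known as E2F1 targets 9 were tested, of which 3 rose and 1 fell, with a median log2 change of 0.12. Over all tested genes 8.18% rose and 10.1% fell. BBC3, which encodes PUMA, was at 10.8, 12.4 and 12.9 FPKM with BCL6B overexpression and at 7.70, 7.75 and 7.43 FPKM in control libraries (limma adjusted p = 0.00398), and PMAIP1, which encodes NOXA, at 8.57 ± 0.897 FPKM with overexpression and 6.52 ± 0.428 FPKM in control libraries (SD, n = 3). Both are also known as p53 targets. MAP3K5, which encodes the stress kinase ASK1, fell to 3.40 ± 0.118 FPKM with overexpression, against 4.48 ± 0.334 FPKM in control libraries. That call was lost without overexpression replicates 1 or 2 or control replicates 2 or 3, and the count of 3 was 2 with any 1 library left out except overexpression replicate 1. APAF1 did not pass. Of 7 genes of E2F or pocket protein turnover 1 fell, CDC20, at 37.1 FPKM with overexpression and 44.9 FPKM in control libraries, and 0 rose. This was near the 10.1% lower and 8.18% higher of all tested genes. At an unadjusted p under 0.05 the counts for the 7 were 2 lower and 0 higher, and limma voom called 1 and 0. The CDC20 call was lost with any 1 library left out except overexpression replicate 1, and the gene is also among the G2/M genes. SKP2, a ubiquitin ligase subunit that acts on p130 and E2F1, was at 22.9 FPKM with overexpression and 23.1 FPKM in control libraries.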
